A study of Mus musculus with 2 samples.

Results

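The genes described here encode axon and vessel guidance ligands and receptors, compared between the lungs of mice with an endothelial deletion of Foxf1 and the lungs of control mice. They are all genes of the expression tables whose symbols begin with the names of the semaphorins of classes 3 to 7, the plexins, the plexin domain-containing proteins, the Slits, the Robo receptors, the netrins, the Unc5 receptors, the Eph receptors or the ephrins. This choice by name gave 69 of 22072 genes, in 12 families. The knockout pool was lung RNA of mice with the genotype Pdgfb-iCreER / FoxF1 fl/fl, in which a tamoxifen-inducible Cre recombinase is driven by the endothelial Pdgfb gene. The control pool was lung RNA of Foxf1 fl/fl mice, which carry the floxed alleles without Cre. Both were of the C57/BL6 background, and each genotype is represented by 1 library made from several pooled animals. Age, sex, number of animals, the tamoxifen schedule and the deleted part of Foxf1 were, for both pools, not given in the sources used here. Because the controls had no Cre, an effect of the recombinase and an effect of losing Foxf1 cannot be told apart.

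Guidance proteins were first described as cues that steer growing axons, and many of them also direct sprouting, branching and arteriovenous separation of blood vessels. Semaphorins signal through plexins, with neuropilins as co-receptors for most secreted class 3 members. Slits bind Robo receptors, of which Robo4 is largely endothelial, and netrins act through Unc5 receptors and through Dcc and neogenin. Eph receptors and ephrins are both held at the cell surface and signal on contact between cells, and the pair of ephrin-B2 and EphB4 marks arterial and venous endothelium.

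Among the guidance genes, Sema3c lay farthest below equality in the knockout pool, while Unc5b, Sema7a and Plxnd1 were among those farthest above it. For these 4 genes the 250 bases before the annotated transcription start are shown, 5′ to 3′ on the strand of the gene, as genes that differed by more than 2-fold and have a single window in the promoter table, a choice made after their values were seen. Of the other guidance genes with a mean of at least 1 FPKM, Sema6b also differed by more than 2-fold but has 2 windows there. Sema6a, which was 2.0-fold lower, has no window there, and neither gene is shown. The sequences are taken from RefSeq promoter sequences of the build GRCm38.p6, a different build from the mm9 used in the expression tables. The windows are chr5:17574566-17574815 (plus strand) for Sema3c, chr9:57939862-57940111 (plus strand) for Sema7a, chr6:115995006-115995255 (minus strand) for Plxnd1 and chr10:60831582-60831831 (minus strand) for Unc5b. Capitals mark matches to the GC box GGGCGG on either strand, where it reads CCGCCC.
Sema3c: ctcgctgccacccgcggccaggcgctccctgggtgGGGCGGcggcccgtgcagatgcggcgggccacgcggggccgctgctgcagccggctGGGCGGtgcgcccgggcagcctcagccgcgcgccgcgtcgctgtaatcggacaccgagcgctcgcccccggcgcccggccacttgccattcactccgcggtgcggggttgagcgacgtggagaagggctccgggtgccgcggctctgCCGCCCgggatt
Sema7a: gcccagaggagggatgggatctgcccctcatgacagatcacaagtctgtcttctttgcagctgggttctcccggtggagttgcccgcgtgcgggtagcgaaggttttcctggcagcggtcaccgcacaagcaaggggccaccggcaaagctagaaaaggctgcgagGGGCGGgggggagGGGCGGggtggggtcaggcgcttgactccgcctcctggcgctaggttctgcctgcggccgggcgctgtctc
Plxnd1: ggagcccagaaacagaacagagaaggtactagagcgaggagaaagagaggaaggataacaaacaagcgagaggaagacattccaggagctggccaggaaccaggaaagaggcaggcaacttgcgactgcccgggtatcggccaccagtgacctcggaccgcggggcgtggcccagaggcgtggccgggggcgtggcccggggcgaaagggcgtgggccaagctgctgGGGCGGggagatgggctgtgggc
Unc5b: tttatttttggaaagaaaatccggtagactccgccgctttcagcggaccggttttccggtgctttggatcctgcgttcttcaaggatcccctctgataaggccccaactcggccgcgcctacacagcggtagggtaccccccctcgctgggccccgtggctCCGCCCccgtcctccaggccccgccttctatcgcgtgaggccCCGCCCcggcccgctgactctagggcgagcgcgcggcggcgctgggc
All 4 windows were rich in G and C, at 78.4% for Sema3c, 66.4% for Sema7a, 64.8% for Plxnd1 and 66.8% for Unc5b, against a median of 52.4% over 32851 promoter windows of the same length. The GC box occurred 3 times in the Sema3c window, 2 times in that of Sema7a, once in that of Plxnd1 and 2 times in that of Unc5b. Of all promoter windows, 32.7% held at least 1 GC box, and of the 74 windows of 58 guidance genes in the table, 70.3% did. These 74 windows had a median G and C content of 64.2%, against the 52.4% of all windows. The forkhead core TAAACA, which reads TGTTTA on the other strand, was absent from the 4 windows shown. It was present in 2 of the 74 guidance gene windows (2.70%) and in 12% of all windows. The part of base composition in the shares of both motifs was not tested, and these matches and absences describe letters in short windows only.

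Before the guidance genes, the target of the deletion was examined. Foxf1, listed as Foxf1a, had 15.7 FPKM in the knockout pool and 72.1 FPKM in the control pool. FPKM counts sequenced fragments scaled to transcript length and to library size, so that levels of different genes can be compared per length. Foxf1 was therefore lower in the library labelled as knockout, 4.59-fold (3.97 to 5.33). The values in brackets after a fold are 95% counting intervals, computed from approximate read numbers. They leave out differences between mice, pools and library preparations, and no difference below has a replicate check. Reads assigned to transcripts came to about 10.6 M for the knockout pool and 13.4 M for the control pool. The guidance genes took 0.517% of these reads in the knockout pool and 0.515% in the control pool. In RNA of whole lung, fewer cells of a type and less RNA per cell cannot be told apart.

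As a group the guidance genes were centred where all genes were centred. Of the 69 genes, 53 had a mean level of at least 1 FPKM over both pools, and of these 6 exceeded the control by 1.5-fold or more in the knockout pool, 2 fell short of it by as much and 45 lay within 1.5-fold on the log2(FPKM + 1) scale. Those higher were Unc5b, Sema7a, Sema6b, Plxnd1, Plxdc1 and Sema4c, and those lower were Sema3c and Sema6a. The 6 higher genes are 11.3% of the 53, and over all 12929 genes at that level 9.41% were as much higher. The 2 lower genes are 3.77%, against 4.63% of all genes. Both shares lie near those of all genes, so the number of differing guidance genes is no result about the group. Their median log2 difference, knockout minus control, was 0.06, against 0.05 for all genes. The 29 ligands had a median of 0.11, from -1.85 to 1.12, and the 24 receptors a median of 0.06, from -0.55 to 1.15. The plexin domain-containing genes were counted with the receptors, and the -0.55 is that of Plxdc2. All 3 medians of guidance genes turned negative when the libraries were scaled on housekeeping genes (-0.12, -0.11 and -0.16), a scaling that moved the median of all genes to -0.15.

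**Figure D1:**
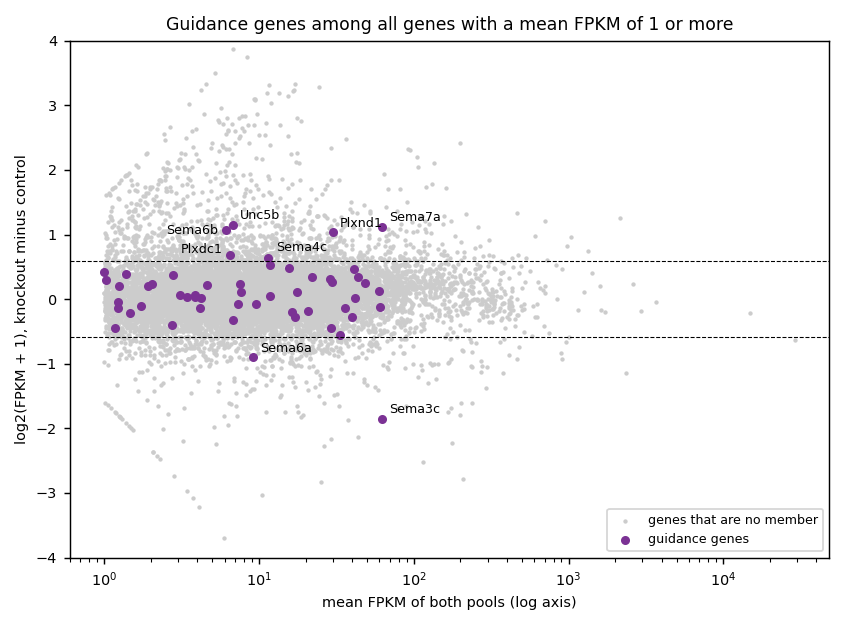
Difference between the pools (knockout minus control, log2(FPKM + 1), vertical axis) against the mean FPKM of both pools (horizontal log axis), with guidance genes in purple, all other genes with a mean of 1 FPKM or more in grey and dashed lines at 1.5-fold. Purple points are spread through the grey cloud, with Sema3c at -1.85 and Unc5b at 1.15 as the extremes, and 4 grey genes beyond 4 in either direction are not drawn.

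Secreted class 3 semaphorins, which guide neurons and vessels from a distance, included the guidance gene with the largest difference. Sema3c, a ligand that attracts neural crest cells into the cardiac outflow tract and signals through neuropilins and plexins, had 26.3 FPKM in the knockout pool and 97.5 FPKM in the control pool. Its level was 3.71-fold lower (3.52 to 3.91) in the knockout pool, from about 1691 knockout reads and 8076 control reads. Sema3c was the most abundant of all 69 guidance genes in the control pool and ranked 14 in the knockout pool. Among all 12929 genes it had the 30th lowest log2 difference, at -1.85. Its record lies on chromosome 5 from 17080634 to 17236085 (mm9).

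The other class 3 genes stayed within 1.5-fold. Sema3g, a ligand of arterial endothelium, had 62.5 FPKM in the knockout pool and 57.6 FPKM in the control pool, a log2 difference of 0.12 that became -0.11 with housekeeping scaling. Sema3f, a neuropilin-2 ligand, had 58.0 FPKM in the knockout pool and 63.3 FPKM in the control pool. Together with Sema3c these were the 3 most abundant class 3 genes in the control pool, and without Sema3c the 6 remaining genes summed to nearly the same level in both pools, at a ratio of 1.02. Sema3b stood at 31.8 FPKM in the knockout pool against 25.5 FPKM in the control pool, a log2 difference of 0.31 that was -0.01 on its most abundant record alone. Sema3e, which binds plexin-D1 without a neuropilin, had 19.3 FPKM in the knockout pool and 22.2 FPKM in the control pool, 1.15-fold lower (1.08 to 1.22). Sema3d, the least abundant of the class, was the highest by log2 difference at 0.38, with 3.27 FPKM in the knockout pool and 2.29 FPKM in the control pool. Sema3a, the founding chemorepellent of the class, differed by less than its counting error, with 9.21 FPKM in the knockout pool and 9.83 FPKM in the control pool.

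Membrane-bound semaphorins of classes 4 to 7 were the largest family, with 10 of the 53 guidance genes over 1 FPKM. Of these 10, 3 were at least 1.5-fold higher, where 9.41% of all genes were, and 1 was as much lower, where 4.63% of all genes were. Sema7a, a lipid-anchored semaphorin that binds plexin-C1 and integrins and is known from immune and lung fibrosis biology, had 85.8 FPKM in the knockout pool and 39.0 FPKM in the control pool. Its level was 2.20-fold higher (2.09 to 2.32) in the knockout pool, where it was the most abundant guidance gene, against rank 8 in the control pool. Sema6b, a transmembrane ligand of A-type plexins, had 8.63 FPKM in the knockout pool and 3.57 FPKM in the control pool, 2.42-fold higher (2.05 to 2.84). Its relative Sema6a, a ligand of plexins A2 and A4 that is also expressed in endothelium, went the other way. Sema6a had 6.11 FPKM in the knockout pool and 12.3 FPKM in the control pool, 2.0-fold lower (1.81 to 2.22). Sema4c, a ligand of plexin-B2, had 14.1 FPKM in the knockout pool and 8.80 FPKM in the control pool, 1.61-fold higher (1.43 to 1.80).

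Of the remaining membrane semaphorins over 1 FPKM, the 2 nearest to the threshold were Sema4a and Sema6d. Sema4a, which acts on T cells and on endothelial plexin-D1, had 14.2 FPKM in the knockout pool and 9.52 FPKM in the control pool, 1.49-fold higher (1.33 to 1.69). Sema6d, a plexin-A1 ligand, had 18.5 FPKM in the knockout pool and 12.9 FPKM in the control pool, 1.43-fold higher (1.32 to 1.53). Counted on its most abundant transcript record alone, Sema6d turned to a log2 difference of -0.30, against 0.48 for the sum of its records. Sema4f alone of these lay below equality, at 5.93 FPKM in the knockout pool and 7.70 FPKM in the control pool. Sema4b, Sema4d (the lymphocyte semaphorin CD100) and Sema5a differed by less than their counting error, at 3.95, 3.93 and 3.47 FPKM in the knockout pool and 3.74, 3.83 and 3.39 FPKM in the control pool. The 13 genes of these classes summed to 166 FPKM in the knockout pool and 106 FPKM in the control pool, a ratio of 1.56 that was 1.20 without Sema7a and 1.33 with housekeeping scaling. The median log2 difference of the 10 genes over 1 FPKM was 0.27. It was 0.05 on the most abundant record of each gene (0.05 for all genes too), 0.06 with no minimum level, 0.07 with housekeeping scaling and 0.53 for the 7 genes over 5 FPKM.

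**Figure D2:**
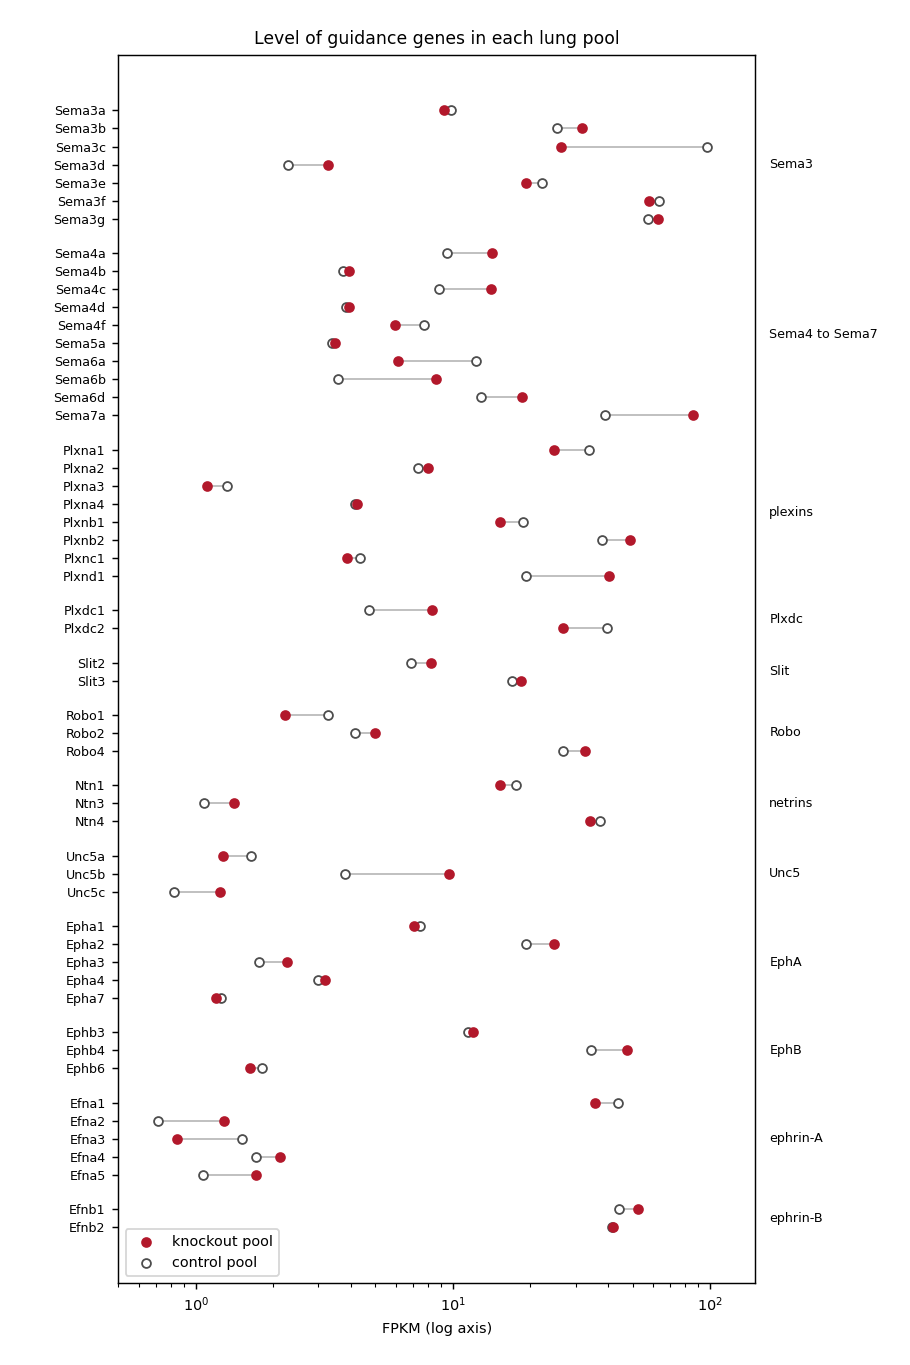
FPKM (horizontal log axis) of the 53 guidance genes with a mean of 1 FPKM or more, by family, with a filled red point for the knockout pool and an open point for the control pool. The line between the points is longest for Sema3c, at 26.3 FPKM in the knockout pool and 97.5 FPKM in the control pool, while Efnb2 has both points together.

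Plexins, the semaphorin receptors, were mostly near equality, with 1 exception. Plxnd1, the plexin of developing endothelium and the receptor of Sema3e, had 40.6 FPKM in the knockout pool and 19.3 FPKM in the control pool. This 2.11-fold higher level (2.0 to 2.22) placed it at rank 8 among guidance genes in the knockout pool, against rank 16 in the control pool. Plxnb2, the most abundant plexin in both pools and the receptor of Sema4c, had 48.7 FPKM in the knockout pool and 38 FPKM in the control pool. In the control table both Plxnb2 records carry the status FAIL, so the control value of this gene is uncertain, and its log2 difference of 0.35 was -0.05 on its most abundant record alone. It was the only guidance gene with a status other than OK. Plxna1 was the plexin farthest below equality, at 24.7 FPKM in the knockout pool and 33.9 FPKM in the control pool, 1.37-fold lower (1.31 to 1.44). Plxnb1, the receptor of Sema4d, was also lower, at 15.3 FPKM in the knockout pool and 18.7 FPKM in the control pool. Plxna2, Plxna3, Plxna4 and Plxnc1, the receptor of Sema7a, had FPKM ratios, knockout over control, between 0.840 and 1.09.

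Neuropilins, which are outside the name rule, did not move alike. Nrp1, a co-receptor shared by class 3 semaphorins and VEGF, had 74.9 FPKM in the knockout pool and 71.1 FPKM in the control pool, a level above that of every plexin. Nrp2 had 16.6 FPKM in the knockout pool and 9.94 FPKM in the control pool, 1.67-fold higher (1.55 to 1.83). It was the only gene at least 1.5-fold different among the 11 over 1 FPKM on a list of co-receptors and further binding partners, which had a median log2 difference of 0.06 (-0.15 with housekeeping scaling). The most abundant gene of that list was the syndecan gene Sdc1 (86.3 FPKM in the knockout pool and 77.3 FPKM in the control pool), and its lowest by log2 difference (-0.36) was Rgma, which encodes a neogenin ligand (4.50 FPKM in the knockout pool and 6.04 FPKM in the control pool). The 2 plexin domain-containing genes differed in opposite directions. Plxdc1, known as tumour endothelial marker 7, had 8.28 FPKM in the knockout pool and 4.74 FPKM in the control pool, 1.75-fold higher (1.47 to 2.08). Plxdc2 had 26.8 FPKM in the knockout pool and 39.8 FPKM in the control pool, 1.49-fold lower (1.38 to 1.60), just short of the threshold.

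Slits and Robo receptors lay within 1.5-fold throughout. Slit3, the most abundant of these secreted repellents in both pools, had 18.4 FPKM in the knockout pool and 17.0 FPKM in the control pool. Slit2 had 8.24 FPKM in the knockout pool and 6.86 FPKM in the control pool, 1.20-fold higher (1.09 to 1.32). Robo4, the endothelial member linked to vascular stability, made up 81.8% of the summed Robo level in the knockout pool and 78.3% in the control pool. It had 32.6 FPKM in the knockout pool and 26.8 FPKM in the control pool, 1.22-fold higher (1.13 to 1.30). Robo2 was higher by a like amount, at 5.0 FPKM in the knockout pool and 4.15 FPKM in the control pool. The log2 differences of Slit2, Robo4 and Robo2 were 0.23, 0.27 and 0.22, and with housekeeping scaling they fell to 0.03, 0.05 and 0.03. Robo1, a receptor of epithelium, mesenchyme and neurons, was the lowest, at 2.22 FPKM in the knockout pool and 3.26 FPKM in the control pool, 1.47-fold lower (1.24 to 1.73).

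Netrins were near equality, while 1 of their receptors passed 1.5-fold on the log2(FPKM + 1) scale. Ntn4, a netrin of basement membranes and the most abundant one, had 34.2 FPKM in the knockout pool and 37.5 FPKM in the control pool, 1.10-fold lower (1.01 to 1.19). Ntn1, the classical netrin, had 15.2 FPKM in the knockout pool and 17.6 FPKM in the control pool, a ratio of 0.866 (0.802 to 0.934). Ntn3 had 1.41 FPKM in the knockout pool and 1.08 FPKM in the control pool, and its locus overlaps that of Tbc1d24 in the files. Unc5b, the netrin receptor of endothelial tip cells, which also binds Robo4, had 9.67 FPKM in the knockout pool and 3.81 FPKM in the control pool. This 2.54-fold higher level (2.24 to 2.88) was the highest log2 difference among the guidance genes, at 1.15, and stood at rank 375 from the top of 12929 genes. Unc5c, with 1.24 FPKM in the knockout pool and 0.826 FPKM in the control pool, and Unc5a, with 1.28 FPKM in the knockout pool and 1.64 FPKM in the control pool, were near 1 FPKM. The summed level of the Unc5 family was 12.4 FPKM in the knockout pool and 6.61 FPKM in the control pool, a ratio of 1.88 that was 0.972 without Unc5b. Neogenin, encoded by Neo1, had 12.4 FPKM in the knockout pool and 12 FPKM in the control pool, and Dcc had no estimated read in either pool.

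**Figure D3:**
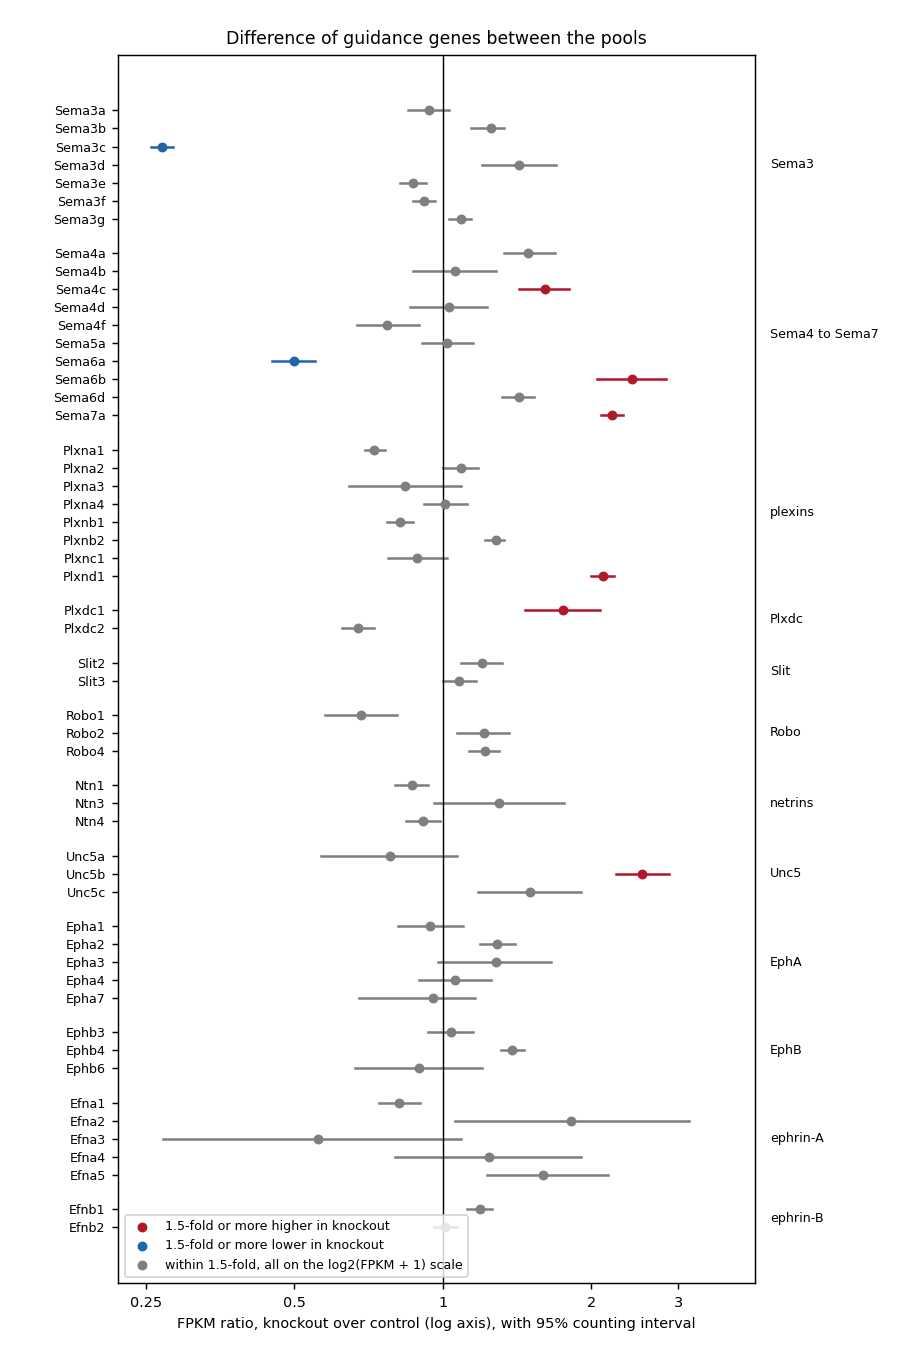
FPKM ratio, knockout over control (horizontal log axis), of the 53 guidance genes with a mean of 1 FPKM or more, by family, with bars for the 95% counting interval and a line at equality. Red points are at least 1.5-fold higher and blue points at least 1.5-fold lower in the knockout pool on the log2(FPKM + 1) scale, on which low genes such as Efna2 (ratio 1.82) stay grey.

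No Eph receptor or ephrin over 1 FPKM passed 1.5-fold on the log2(FPKM + 1) scale, and the largest difference between abundant members was that of Ephb4. Ephb4, the venous Eph receptor, had 47.5 FPKM in the knockout pool and 34.3 FPKM in the control pool, 1.38-fold higher (1.31 to 1.46). Its arterial ligand gene Efnb2 differed by less than its counting error, with 42.1 FPKM in the knockout pool and 41.5 FPKM in the control pool. Efnb1, the other abundant B-type ephrin, had 52.4 FPKM in the knockout pool and 44.1 FPKM in the control pool, 1.19-fold higher (1.12 to 1.26). The log2 difference of Efnb1, 0.25, was 0.02 with housekeeping scaling. Ephb3 was close to level, at 12 FPKM in the knockout pool and 11.5 FPKM in the control pool, as was Ephb6, which lacks kinase activity, at 1.62 FPKM in the knockout pool and 1.81 FPKM in the control pool.

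Among the A-type genes, the receptor Epha2 and its ligand Efna1 were the most abundant and differed in opposite directions. Epha2, a receptor of epithelium and endothelium, had 24.8 FPKM in the knockout pool and 19.2 FPKM in the control pool, 1.29-fold higher (1.19 to 1.4). Efna1, a TNF-inducible ephrin of endothelium, had 35.7 FPKM in the knockout pool and 43.7 FPKM in the control pool, 1.22-fold lower (1.11 to 1.35). Epha1, Epha3, Epha4 and Epha7 differed by less than their counting error, with Epha1 the most abundant of the 4 at 7.06 FPKM in the knockout pool and 7.48 FPKM in the control pool. The other A-type ephrins were low. Efna5 had 1.71 FPKM in the knockout pool and 1.07 FPKM in the control pool, a plain ratio of 1.60 (1.23 to 2.16), and Efna2 had 1.29 FPKM in the knockout pool and 0.711 FPKM in the control pool, from about 36 knockout reads and 25 control reads. Efna3 was at 0.846 FPKM in the knockout pool and 1.51 FPKM in the control pool, and Efna4 at 2.13 FPKM in the knockout pool and 1.72 FPKM in the control pool, both within counting error.

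Summed over families, secreted class 3 semaphorins held 210 FPKM in the knockout pool and 278 FPKM in the control pool, a ratio of 0.756. Plexins summed to 147 FPKM in the knockout pool and 127 FPKM in the control pool, a ratio of 1.15 that was 0.982 with housekeeping scaling. EphB receptors summed to 62.1 FPKM in the knockout pool and 48.2 FPKM in the control pool, a ratio of 1.29. For the other families the ratio of sums lay between 0.787 (plexin domain-containing proteins) and 1.18 (EphA receptors), apart from the membrane semaphorins and Unc5 receptors described above. With housekeeping scaling the ratio turned below 1 for Slits (0.954), Robo receptors (0.993) and ephrin-B ligands (0.94), which were above 1 as deposited. Over all 69 genes the sum was 926 FPKM in the knockout pool and 893 FPKM in the control pool, a ratio of 1.04 that was 0.883 with housekeeping scaling.

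**Figure D4:**
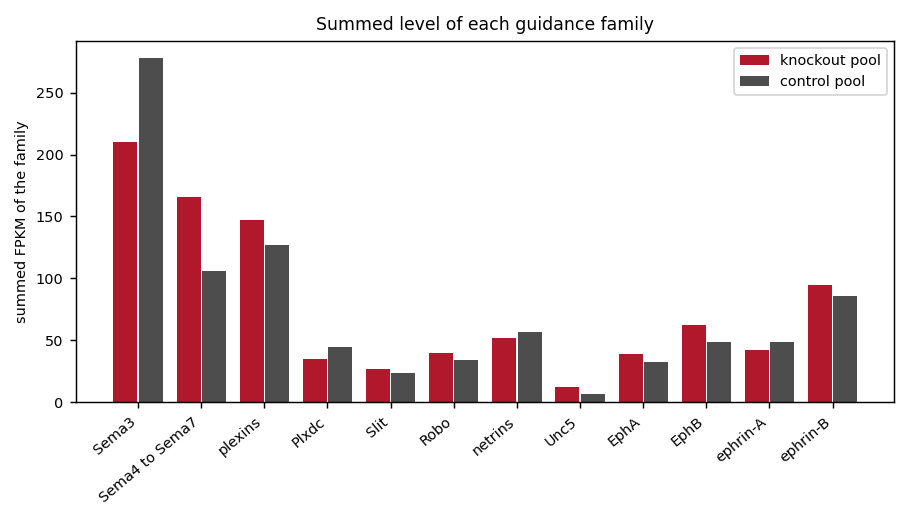
Summed FPKM of all genes of each family, with a red bar for the knockout pool left of a grey bar for the control pool, 1 library each and no error bars. Class 3 semaphorins have the lower knockout bar of 210 FPKM against 278 FPKM, and membrane semaphorins the higher one of 166 FPKM against 106 FPKM.

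Within each pool, levels of a ligand were also set against those of a receptor of its pathway. Direct binding of the proteins is not implied for every pair. Sema7a was 22.1 times its receptor Plxnc1 in the knockout pool and 8.93 times in the control pool. Ntn4 was 3.54 times Unc5b in the knockout pool and 9.86 times in the control pool, a 2.78-fold lower ratio, with Ntn4 itself 1.10-fold lower and Unc5b 2.54-fold higher. The ratio of Efnb2 to Ephb4 was 0.886 in the knockout pool and 1.21 in the control pool, so that ephrin-B2 transcripts were the fewer of this pair in the knockout pool and the more abundant in the control pool. Slit2 relative to Robo4 hardly differed, at 0.253 in the knockout pool and 0.256 in the control pool. Slit3 relative to Robo1 was 8.28 in the knockout pool and 5.21 in the control pool. Further pairs were chosen after their values were seen, and this choice can shape the size of their differences. Sema3c relative to Plxnd1 was 0.647 in the knockout pool and 5.06 in the control pool. Efna1 relative to Epha2 was 1.44 in the knockout pool and 2.28 in the control pool. The cells that make each ligand and receptor cannot be told from whole-lung RNA.

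For 13 guidance genes the tables hold more than 1 RefSeq transcript record, and the share of each was an estimate by the authors. The 4334-base record of Ephb4 made up 89.8% of the gene in the knockout pool and 87.2% in the control pool. The 3305-base record of Sema3b made up 60.7% of the gene in the knockout pool and 76.0% in the control pool, while the 3115-base record had 12.5 FPKM in the knockout pool and 6.13 FPKM in the control pool. For Sema4a the 3224-base record had 9.34 FPKM in the knockout pool and 4.92 FPKM in the control pool, and the 3046-base record was nearly level at 4.82 FPKM in the knockout pool and 4.6 FPKM in the control pool. Sema6d was divided among 5 records, of which that of 6277 bases had 7.31 FPKM in the knockout pool and 1.29 FPKM in the control pool, and that of 6445 bases had 4.59 FPKM in the knockout pool and 5.88 FPKM in the control pool. Near-identical records changed places for Ephb6, whose reads went almost wholly to the 3760-base record in the knockout pool and to the 3756-base record in the control pool. Efna5 showed the same exchange between its records of 5259 and 5178 bases. Whether such exchanges come from the division of shared reads between records was not tested. Levels of genes are sums over records unless a single record is named.

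Several guidance genes are neighbours in the genome, and their differences are given side by side without a test. Sema3a, Sema3c, Sema3d and Sema3e lie on chromosome 5, and Sema3e, separated from Sema3c by 2824 kb (mm9), had a log2 difference of -0.19, against -1.85 for Sema3c. Sema3b and Sema3f, 72.3 kb apart on chromosome 9, had differences of 0.31 and -0.12. Efna1, Efna3 and Efna4 lie within one stretch of chromosome 3, and their differences were -0.28, -0.45 and 0.20. Robo3, 2.02 kb from Robo4 on chromosome 9, was nearly silent, at 0.0151 FPKM in the knockout pool, and it was listed at 0 in the control pool. The remaining genes past 1.5-fold lie on chromosome 10 (Unc5b, 60225343 to 60294329), chromosome 9 (Sema7a, 57787942 to 57810672), chromosome 6 (Plxnd1, 115904829 to 115945023), chromosome 17 (Sema6b, 56262508 to 56279766), chromosome 11 (Plxdc1, 97784551 to 97847760), chromosome 1 (Sema4c, 36605487 to 36615226) and chromosome 18 (Sema6a, 47404908 to 47528522), all in mm9.

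The remaining 16 guidance genes had a mean under 1 FPKM. Epha5, Epha6, Epha8 and Epha10 were listed at 0 in both pools. Slit1 had 0.0423 FPKM in the knockout pool, from about 3 reads, and was listed at 0 in the control pool. Sema5b had 0.168 FPKM in the knockout pool, from about 10 reads, and 0.0135 FPKM in the control pool, from about 1 read, a ratio of 12.4 with a counting interval of 1.80 to 495. Ephb1 had 0.532 FPKM in the knockout pool and 0.272 FPKM in the control pool, and Ephb2 had 0.527 FPKM in the knockout pool and 0.297 FPKM in the control pool. The other 8 (Efnb3, Ntn5, Plxnb3, Sema4g, Sema6c, Unc5d, Unc5cl and Robo3) had FPKM values under 1 in both pools. Unc5cl matches by name but encodes a death-domain protein that is not a netrin receptor.

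Cytoplasmic effectors, the proteins that carry guidance signals to the cytoskeleton, were centred like all genes. Of 44 genes on a list of such effectors, 40 were over 1 FPKM, with a median log2 difference of 0.06 (-0.15 with housekeeping scaling). On the log2(FPKM + 1) scale 3 were at least 1.5-fold higher and 3 at least 1.5-fold lower (7.50% each, against 9.41% and 4.63% of all genes). Mical1 (higher), Farp2 and Arhgef12 (lower) passed 1.5-fold only as plain ratios, at 1.55-fold, 1.88-fold and 1.52-fold. Dpysl5, which encodes a collapsin response mediator protein, had the lowest log2 difference (-1.66), at 0.550 FPKM in the knockout pool and 3.91 FPKM in the control pool, 7.11-fold lower (5.02 to 10.3). Dpysl3, another gene of that family, had the highest difference on the log2(FPKM + 1) scale (0.93). It had 17.1 FPKM in the knockout pool and 8.52 FPKM in the control pool, 2.01-fold higher (1.72 to 2.33). The plain ratio of summed FPKM was larger for Tiam1, which encodes a Rac activator, at 2.12. Its interval of 1.66 to 2.31 comes from the summed reads of 3 records and overlaps that of Dpysl3. Cfl1, which encodes the actin-severing protein cofilin and was the most abundant, had 523 FPKM in the knockout pool and 336 FPKM in the control pool. Rhoa, the GTPase downstream of many guidance receptors, had 304 FPKM in the knockout pool and 271 FPKM in the control pool.

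Markers of several cell types differed between the pools beside the guidance genes. Markers were counted as 1.5-fold higher or lower on the log2(FPKM + 1) scale, so some that were not counted exceed 1.5-fold as a plain ratio. Surfactant gene Sftpc, at 13793 FPKM in the knockout pool and 15925 FPKM in the control pool, marks both libraries as lung. Pan-endothelial markers, all 25 over 1 FPKM, split into 6 at least 1.5-fold higher and 6 at least 1.5-fold lower, with a median of -0.07 and sums of 2590 FPKM in the knockout pool and 2945 FPKM in the control pool. They ranged from Emcn, 5.11-fold higher (4.70 to 5.54), to Calcrl, 3.06-fold lower (2.97 to 3.14). A list of 11 guidance genes with textbook endothelial expression, chosen with earlier results of these data known, had a median of 0.25. On it Plxnd1, Unc5b and Plxdc1 were at least 1.5-fold higher (27.3%, against 9.41% of all genes) and Sema6a lower (9.09%, against 4.63%). With housekeeping scaling the median of this list was 0.02, and the ratio of its summed FPKM was 0.959 in place of 1.13. The choice of so few genes can shape these shares, which are no result about endothelial genes as a class. Smooth muscle and pericyte markers had 7 of 14 genes at least 1.5-fold higher and none lower, and summed to 765 FPKM in the knockout pool and 425 FPKM in the control pool. Fibroblast markers had 6 of 15 higher and 1 lower (sums of 2683 and 2253 FPKM in the knockout and control pools), macrophage and monocyte markers 6 of 13 higher and 1 lower (362 and 222 FPKM), and mesothelial markers 3 of 7 higher and none lower (281 and 189 FPKM). All 12 cell cycle genes were at least 1.5-fold higher, with sums of 331 FPKM in the knockout pool and 80.5 FPKM in the control pool. Airway epithelial markers had 6 of 9 at least 1.5-fold lower and none higher (25536 and 40648 FPKM), and alveolar epithelial markers 1 of 12 lower (19118 and 22193 FPKM). Lymphocyte markers had 1 of 12 lower and none higher (65.1 and 64.2 FPKM). Lymphatic endothelial markers had 1 of 4 lower and none higher (146 and 283 FPKM), with Ccl21a at 0 in both pools. The lower one was Lyve1, at 33.0 FPKM in the knockout pool and 194 FPKM in the control pool. Flt4 (16.6 and 11.0 FPKM, a plain ratio of 1.51) and Pdpn (89.2 and 69.6 FPKM) lay above equality, and Mmrn1 (5.68 and 6.49 FPKM) below it. Neuronal and Schwann cell markers had 6 of 18 over 1 FPKM, 2 of them higher and 1 lower (69.8 and 69.1 FPKM), while Th, Nefl, Nefm and Sox10 were among those at 0 in both pools. The part of these cell types in the differences of Sema3c, Sema7a, Plxnd1, Unc5b and the other guidance genes was not tested.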

How the data were processed

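The authors deposited 1 table per library with an FPKM value for each of 28107 RefSeq transcript records, with its locus, length and quantification status. Per the file headers, the tables also hold coverage, the mean read depth over a transcript. The submitters' processing notes name the build mm9 and the tool DESeq, the latter without a version. The sources used here give no aligner or quantification tool. Libraries were grouped by the genotype in the labels.

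FPKM values of all records of a symbol were summed (22072 genes, 3793 with more than 1 record). Differences are log2(FPKM + 1), knockout minus control, which understates low genes, and printed folds are plain FPKM ratios. A gene counted as different with a mean of at least 1 FPKM and a fold of 1.5 on that log2 scale. Reads were approximated as coverage times length divided by 46.8 bases, the most frequent value for genes with about 1 read. Each 95% interval is an exact conditional (Clopper-Pearson) interval of these reads and covers counting error only. For genes with more than 1 record it rests on summed reads, so it need not be centred on the ratio of summed FPKM. The calculation was checked on counts simulated from the same counting model. That check cannot cover the approximation of reads or differences between pools. With 1 library per genotype no p-value was computed.

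The text names Foxf1, members past 1.5-fold, and per family the 2 most abundant, the highest and the lowest, with other members as needed. Members, marker lists and the naming rule were chosen with earlier results of these data known. One neuronal marker is not reported here by name. Starts in mm9 are counted from 1. Promoter windows came from RefSeq (GRCm38.p6). Analysis used Python 3.11.15, pandas 2.3.3, NumPy 2.4.6, SciPy 1.17.1 and matplotlib 3.10.9. Alternatives changed the pseudocount, floor, fold, scaling, transcript summing and status filter.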

Additional observations from a re-analysis of the deposited data

How the results depend on the processing

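The 6 guidance genes higher and 2 lower in the knockout pool became 14 and 7 with the threshold lowered to 0.32 on the log2 scale, where 21.4% of all genes were higher and 12.9% lower. They became 4 and 1 at a fold of 2 (3.75% and 1.3% of all genes), where Plxdc1, Sema4c and Sema6a were no longer counted. Housekeeping scaling gave 4 higher and 4 lower (5.53% and 9.51% of all genes), without Plxdc1 and Sema4c and with Plxdc2 and Plxna1 added, and a median log2 difference of -0.12 for the members and -0.15 for all genes. Under the other alternatives run, 4 to 8 genes were higher and 2 or 3 lower, against 6.39% to 11.8% and 2.87% to 6.71% of all genes. Plxdc1 and Sema4c dropped out with a pseudocount of 3. Scaling on the upper quartile or on the median ratio dropped Sema4c and added Plxdc2 as lower. A pseudocount of 0.1 added Efna2 and Efna5 as higher and Efna3 as lower, and the most abundant record alone added Sema4a as higher. Unc5b, Sema7a, Sema6b, Plxnd1 and Sema3c were counted in every setting run. Of 423 recomputed log2 differences of single members, none past 1.5-fold changed sign, and under the scalings 10 members near equality did, Efnb2, Sema3g, Slit3 and Plxna2 among them. On the most abundant record alone, 3 more changed sign, Sema6d (-0.30), Plxnb2 (-0.05) and Sema3b (-0.01), against 0.48, 0.35 and 0.31 for summed records.

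Without the most abundant member of each family, the ratio of summed FPKM was 1.02 for class 3 semaphorins (without Sema3c), 1.20 for membrane semaphorins (Sema7a), 1.10 for plexins (Plxnb2), 1.75 for plexin domain-containing proteins (Plxdc2), 1.21 for Slits (Slit3) and 0.978 for Robo receptors (Robo4). It was 0.972 for Unc5 receptors (Unc5b), 1.01 for EphA receptors (Epha2), 1.05 for EphB receptors (Ephb4), 1.19 for ephrin-A ligands (Efna1) and 1.01 for ephrin-B ligands (Efnb1). No paired analysis was possible because each genotype has 1 library. Members under 1 FPKM rest on few reads, and no setting replaces a second pool.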
